A study of Mus musculus with 8 samples.

Results

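The genes described here make sterols and fatty acids or control that synthesis. They were chosen as a list of 37 symbols, 27 for sterols and 10 for fatty acids, and read from the rows of a gene expression table that carry those symbols. The table held 11824 gene symbols and 36 of the 37 members, 35 under the current symbol and Msmo1 under its older symbol Sc4mol. Fads2 was not analysed here. The RNA came from CD4+ T cells with surface CD44, a mark of antigen experience, taken from skin-draining lymph nodes of BALB/cAJcl mice. The cells of all groups had been stimulated for 2 h with phorbol ester (PMA) and the calcium ionophore ionomycin, which together mimic signalling from the antigen receptor. The 4 genotypes were wild type (WT), T-bet-/-, STAT6-/- and T-bet-/- STAT6-/- (the double mutant), with 2 libraries each. T-bet is the transcription factor that drives type 1 helper cells, and STAT6 carries the interleukin-4 signal that drives type 2 helper cells. Sex, age and the number of mice behind each library are not in the labels, nor whether a pair of libraries represents different mice. The p-values therefore measure only the spread between these libraries, which may be technical.

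Cholesterol is built from acetyl-CoA through mevalonate, farnesyl pyrophosphate and squalene, and fatty acids are built from the same acetyl-CoA after ATP citrate lyase has made it in the cytosol. Transcription of both sets of enzymes is driven by the SREBP factors, which the escort protein SCAP carries from the endoplasmic reticulum to the Golgi when sterols are low and which INSIG proteins hold back when sterols are high. LXR receptors respond to oxysterols and switch on the exporters ABCA1 and ABCG1, and T cells raise sterol and lipid synthesis when they are activated to divide.

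Promoters of this pathway carry CCAAT boxes, the binding letters of NF-Y, beside sterol regulatory elements. RefSeq promoter windows (GRCm38.p6, 250 bases before to 50 after a start) matched 28 of the 36 members. Fdps, Fdft1, Sqle, Stard4, Abcg1, Scd1, Scd2 and Fads1 had no entry. The promoters of 2 members that were lower in every mutant (Hmgcs1 and Mvk) and 2 that were higher in every mutant (Idi1 and Msmo1) are shown because the same boxes stood in both pairs. Only bases before the start are printed, 5′ to 3′ on the strand of the gene, and capitals mark CCAAT or its reverse complement ATTGG and, in Hmgcs1, the sterol regulatory element. The regions are chr13:119690101-119690350 (plus strand) for Hmgcs1, chr5:114444076-114444268 (plus) for Mvk, chr13:8885541-8885605 (plus) for Idi1 and chr8:64733579-64733758 (minus) for Msmo1.
Hmgcs1: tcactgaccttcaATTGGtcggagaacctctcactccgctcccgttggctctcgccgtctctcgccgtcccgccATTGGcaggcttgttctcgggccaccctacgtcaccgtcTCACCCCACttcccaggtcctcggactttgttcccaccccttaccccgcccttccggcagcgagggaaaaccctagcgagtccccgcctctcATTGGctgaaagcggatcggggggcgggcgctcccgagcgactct
Mvk: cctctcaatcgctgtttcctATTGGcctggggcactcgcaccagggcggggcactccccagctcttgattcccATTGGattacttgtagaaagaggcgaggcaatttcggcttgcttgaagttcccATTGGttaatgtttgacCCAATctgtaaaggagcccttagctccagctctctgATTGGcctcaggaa
Idi1: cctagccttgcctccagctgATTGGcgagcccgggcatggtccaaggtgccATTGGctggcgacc
Msmo1: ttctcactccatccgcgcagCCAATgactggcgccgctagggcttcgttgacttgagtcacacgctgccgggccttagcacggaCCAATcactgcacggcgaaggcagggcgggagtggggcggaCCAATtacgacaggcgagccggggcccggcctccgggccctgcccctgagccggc

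CCAAT, searched on both strands, was present in the windows of 22 of the 28 members. It was in 62.2% of the 37 member windows and in 37.4% of all 32851 RefSeq windows of the same length. Of the 8 members with a window that were higher than WT in all 3 mutants, 7 held the box, and of the 8 that were lower in all 3 mutants, 6 held it. The letters TCACNCCAC, a form of the sterol regulatory element, were found in 1 member, Hmgcs1, and in 1.24% of all windows. CACGTG, an E-box that SREBPs can also bind, was found in 7 members (21.6% of member windows and 7.15% of all), among them Dhcr7, Sc5d and Insig1. In the printed stretches no match overlaps another, and a match describes letters only.

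Levels are FPKM, fragment counts scaled by exon length and by library size, so they can be set side by side between genes. Differences were taken between values of log2(FPKM + 1), where the added 1 shrinks changes of weakly expressed genes, and are given with a standard error (SE) and an adjusted p from limma over the 10266 genes that reached 1 FPKM in at least 2 libraries. A gene was called higher or lower at an adjusted p under 0.05. Of the 36 members, 34 passed this filter. Elovl6, an elongase, reached 1 FPKM in 0 libraries, with values from 0.452 to 0.951. Scd1, a stearoyl-CoA desaturase, reached it in 1 library, STAT6-/- replicate 1, at 1.38 FPKM, against 0.492 in the other STAT6-/- library. Tm7sf2 passed only through the 2 WT libraries, and both WT libraries of Lss were under 1 FPKM, so the filter favoured a difference for each.

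The targeted transcripts were lower in the libraries labelled for their loss. Tbx21, which encodes T-bet, measured 30.8 and 31.6 FPKM in WT, 1.44 and 1.54 in T-bet-/-, 102 and 92.1 in STAT6-/-, and 2.49 and 2.09 in the double mutant. Stat6 measured 89.9 and 90.9 in WT and 26.9 to 31.6 in the 4 libraries that lack STAT6. Which exons were removed is not given, so the remaining Stat6 reads were not resolved. The WT libraries stood apart from all mutants: correlations of log2 values over genes were 0.9492 to 0.9642 between WT and mutant libraries, 0.9865 to 0.9912 between mutants of different genotype and at least 0.9971 within a genotype. Between 70.6% and 73.1% of tested genes differed from WT in each mutant. The summed hemoglobin transcripts Hba-a1 and Beta-s, 2 of 9 erythroid markers listed, reached 224 to 442 FPKM in WT and 2.63 to 7.48 in the mutants. Myeloid and dendritic cell markers, 8 of 15 listed, summed to 188 to 193 FPKM in WT, 103 to 109 in T-bet-/-, 145 to 146 in STAT6-/- and 114 to 138 in the double mutant. The 6 B cell markers in the table, of 10 listed, summed to between 2.15 and 8.09 FPKM, and the 9 T cell markers, all present, to between 2810 and 3620. Of 7 adipocyte markers, Pparg alone was measured, at 1.41 to 1.93 FPKM in T-bet-/- and under 0.4 in the other libraries. Pecam1 and Col1a1, 2 of 7 stromal and endothelial markers, summed to 24.2 to 26.0 FPKM in WT and 8.15 to 11.3 in the mutants, nearly all of it Pecam1. Kit, 1 of 7 mast cell and basophil markers, measured 18.1 and 18.6 in WT, 8.67 and 8.11 in T-bet-/-, 32.5 and 34.0 in STAT6-/-, and 56.7 and 62.9 in the double mutant, so it also moved between mutants. Klrk1 and Klrd1, 2 of 5 NK cell markers, summed to 0.741 to 1.77 FPKM, and Cd8b1, 1 of 2 CD8 T cell markers, measured 3.02 to 5.60. The part of these cells in the differences between genotypes was not tested. In such bulk samples fewer cells of a type and less RNA per cell cannot be told apart.

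Against WT, sterol genes did not move as a block. In T-bet-/- 7 of the 27 sterol members rose and 11 fell, where 34.2% of all tested genes rose and 36.3% fell. In STAT6-/- 9 rose and 11 fell, against 35% and 36.1% of all genes. In the double mutant 10 rose and 10 fell, against 36.3% and 36.8%. The counts were close to those shares, and the median difference of the sterol members was -0.17, -0.10 and -0.10 in the 3 mutants, beside -0.02, -0.01 and -0.01 over all tested genes. These 3 comparisons use the same 2 WT libraries. Of the 27, 7 were higher in all 3 mutants (Idi1, Fdft1, Sqle, Msmo1, Hsd17b7, Srebf2 and Scap) and 7 were lower in all 3 (Hmgcs1, Mvk, Tm7sf2, Sc5d, Dhcr7, Abca1 and Abcg1). Among all tested genes 27.1% were higher in all 3 and 27.2% lower in all 3. Tm7sf2 passed the filter only through the 2 WT libraries, so the filter favoured its fall in this count and in later ones. No member was called higher in one mutant and lower in another, a pattern that only 2.47% of all tested genes had. Acat2 and Stard4 were called in none of the 6 comparisons, as were 11.8% of all tested genes.

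Of the 7 members that act from acetyl-CoA to farnesyl pyrophosphate, 1 rose and 4 fell in each single mutant, and 1 rose and 3 fell in the double mutant, where between 34.2% and 36.3% of all tested genes rose and between 36.1% and 36.8% fell. Mvk, mevalonate kinase (chromosome 5, 114444264 to 114460591, mm10), measured 8.62 and 7.21 FPKM in WT, 3.09 and 3.03 in T-bet-/-, 3.50 and 2.68 in STAT6-/-, and 2.66 and 3.32 in the double mutant. Every mutant library was below both WT libraries, and the mutants overlapped each other. The difference from WT was -1.13 (SE 0.123, adjusted p = 4.62e-05) in T-bet-/-, -1.13 in STAT6-/- and -1.16 in the double mutant. Hmgcs1, the synthase that makes HMG-CoA, measured 20.4 and 20.1 FPKM in WT, 17.3 and 17.2 in T-bet-/-, 15.1 and 15.6 in STAT6-/-, and 17.5 and 17.9 in the double mutant. It was lowest in STAT6-/- (-0.38, SE 0.053, adjusted p = 0.000199), with the other mutants between those libraries and WT. Mvd, which decarboxylates mevalonate pyrophosphate, measured 2.52 and 2.57 in WT, 1.75 and 1.41 in T-bet-/-, 1.69 and 1.43 in STAT6-/-, and 1.98 and 2.51 in the double mutant. It fell in each single mutant (-0.46 and -0.47, SE 0.107) and was not called in the double mutant (-0.13, adjusted p = 0.288).

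Pmvk, phosphomevalonate kinase, measured 6.16 and 4.42 FPKM in WT, 3.49 and 3.53 in T-bet-/-, 2.33 and 2.53 in STAT6-/-, and 2.17 and 3.86 in the double mutant. It fell in STAT6-/- (-0.86, SE 0.188, adjusted p = 0.00284), and its fall in the double mutant (-0.67, adjusted p = 0.0105) was not called without WT replicate 1 (0.0895) or without double-mutant replicate 1 (0.0641), with a range of 0.00067 to 0.0895 over all alternatives. The isomerase that interconverts the isoprene building blocks went the other way. Idi1, isopentenyl-diphosphate isomerase, measured 15.2 and 14.5 in WT, 19.2 and 18.7 in T-bet-/-, 17.4 and 17.2 in STAT6-/-, and 20.6 and 21.2 in the double mutant. No libraries of different genotypes overlapped, and the rise was largest in the double mutant (0.47, SE 0.054, adjusted p = 5.39e-05). Its rise in STAT6-/- (0.21, adjusted p = 0.00766) was not called under quantile normalization (0.0519, with a range of 0.00412 to 0.0519 over the alternatives). Fdps, farnesyl pyrophosphate synthase, ran from 5.40 to 9.84 FPKM and was called lower in T-bet-/- (-0.41, SE 0.134, adjusted p = 0.0206). That call was absent without WT replicate 1 (0.149) or T-bet-/- replicate 2 (0.162), and its adjusted p ran from 0.00211 to 0.162 over the alternatives. Acat2, which joins acetyl-CoA units, stayed between 4.75 and 5.78 FPKM in all 8 libraries.

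Of the 11 members from squalene to cholesterol, 4 rose and 4 fell in T-bet-/-, 4 rose and 5 fell in STAT6-/-, and 5 rose and 3 fell in the double mutant, near the shares of all tested genes given for the early steps. Fdft1, Sqle, Msmo1 and Hsd17b7 rose in all 3 mutants. Fdft1, squalene synthase, measured 3.58 and 3.67 FPKM in WT, 5.69 and 5.32 in T-bet-/-, 6.62 and 6.45 in STAT6-/-, and 6.70 and 7.54 in the double mutant. The order was WT, T-bet-/-, STAT6-/- and double mutant with no overlap, with differences from WT of 0.49, 0.70 and 0.81 (SE 0.074, adjusted p = 1.11e-05 for the double mutant). Sqle, squalene epoxidase and a rate-setting enzyme of the route, measured 7.32 and 7.53 in WT, 12 and 11.3 in T-bet-/-, 9.04 and 8.90 in STAT6-/-, and 12.1 and 11.3 in the double mutant. T-bet-/- and double-mutant libraries of Sqle overlapped, and both lay above STAT6-/-, which lay above WT. Msmo1, which oxidises a methyl group of the sterol ring, measured 8.76 and 7.91 in WT, 10.6 and 10.1 in T-bet-/-, 11.1 and 11.8 in STAT6-/-, and 11.7 and 13.0 in the double mutant. It rose by 0.51 in the double mutant (SE 0.077, adjusted p = 0.000265), and its rise in T-bet-/- (0.28, adjusted p = 0.00873) was not called without WT replicate 2 (0.0595) or T-bet-/- replicate 1 (0.0589), with a range of 0.00349 to 0.0595 over the alternatives. Hsd17b7, the ketosteroid reductase of the same demethylation, measured 2.27 and 2.1 in WT, 3.65 and 3.42 in T-bet-/-, 2.92 and 3.29 in STAT6-/-, and 3.56 and 3.76 in the double mutant. All 6 mutant libraries were above WT, and it differed from WT by 0.51, 0.37 and 0.55 (SE 0.079).

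Sc5d, Dhcr7 and Tm7sf2 were lower in all 3 mutants. Sc5d, a desaturase of the sterol ring, measured 20.5 and 18.8 FPKM in WT and 14.0 to 15.1 in the 6 mutant libraries, with differences of -0.41, -0.46 and -0.39 (SE 0.061). Dhcr7, which carries out the last reduction to cholesterol in one branch of the route, measured 3.15 and 3.19 in WT, 2.56 and 2.00 in T-bet-/-, 1.56 and 1.49 in STAT6-/-, and 2.26 and 2.31 in the double mutant. Its fall was largest in STAT6-/- (-0.72, SE 0.091, adjusted p = 9.93e-05), and the call in T-bet-/- (-0.35, adjusted p = 0.00714) was absent without T-bet-/- replicate 2 (0.065; 0.0029 to 0.065 over the alternatives). Tm7sf2, a sterol reductase that acts after lanosterol demethylation, measured 1.76 and 2.09 in WT, 0.595 and 0.918 in T-bet-/-, 0.980 and 0.773 in STAT6-/-, and 0.650 and 0.621 in the double mutant, with differences of -0.74, -0.64 and -0.84 (SE 0.112). These levels rest on few fragments, between 15 and 64 whole steps of value per library. Ebp, the sterol isomerase, fell in T-bet-/- (-0.43, SE 0.090, adjusted p = 0.00244; 10.1 and 9.23 FPKM against 14.1 and 12.5 in WT) and was not called in STAT6-/- or the double mutant.

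Cyp51, lanosterol demethylase, fell in STAT6-/- (-0.22, SE 0.056, adjusted p = 0.00664; 14.9 and 14.4 FPKM against 17.6 and 16.9 in WT) and measured 17.7 to 18.4 in the other mutants. Nsdhl, which removes a carboxylated ring methyl, was called lower in STAT6-/- (-0.29, adjusted p = 0.0342), but not without WT replicate 1 (0.196), STAT6-/- replicate 1 (0.115) or STAT6-/- replicate 2 (0.0897), nor under quantile normalization (0.123); the range over the alternatives was 0.0171 to 0.196. Lss, lanosterol synthase, was near 1 FPKM throughout (0.848 to 1.74) and was called higher in the double mutant (0.39, adjusted p = 0.015), but not without WT replicate 2 (0.0735) or double-mutant replicate 2 (0.112); the range was 0.00165 to 0.112. Over the 18 enzymes from acetyl-CoA to cholesterol, 5 rose and 8 fell in T-bet-/-, 5 rose and 9 fell in STAT6-/-, and 6 rose and 6 fell in the double mutant. The shares of all tested genes were 34.2% and 36.3%, 35% and 36.1%, and 36.3% and 36.8%, and the median difference of the 18 enzymes was -0.20, -0.24 and -0.06.

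**Figure D1:**
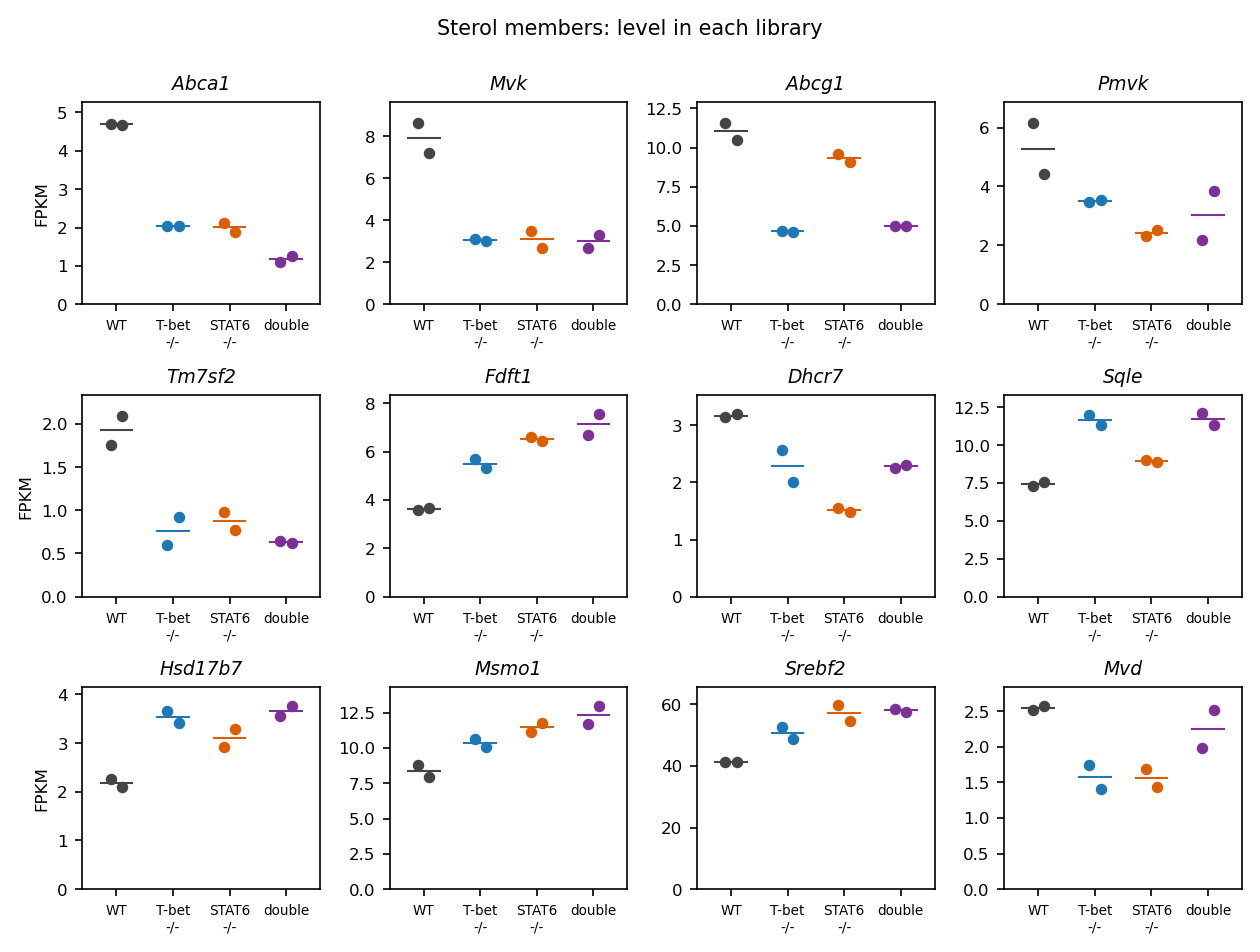
FPKM of 12 sterol genes in each of the 8 libraries, 1 panel a gene with its own vertical axis; points are libraries, bars are genotype means, and "double" is T-bet-/- STAT6-/-. Mvk and Abca1 are lower in all 6 mutant libraries than in both WT libraries, and Fdft1 and Sqle are higher.

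Of the 5 control genes, 2 rose in T-bet-/-, 4 in STAT6-/- and 4 in the double mutant, and 0, 0 and 1 fell. The shares of all tested genes were 34.2%, 35% and 36.3% higher and 36.3%, 36.1% and 36.8% lower. Srebf2 and Scap rose in all 3 mutants, as did 27.1% of all tested genes. Srebf1 and Insig1 were called higher only in the genotypes that lack STAT6, and Insig2 was called lower only in the double mutant. Srebf2, which encodes the SREBP that mainly drives sterol genes, measured 41.4 and 41.3 FPKM in WT, 52.5 and 48.8 in T-bet-/-, 59.8 and 54.7 in STAT6-/-, and 58.5 and 57.6 in the double mutant. All 6 mutant libraries were above WT, with differences of 0.29, 0.46 and 0.48 (SE 0.061, adjusted p = 9.31e-05 in the double mutant). Scap, the escort protein, measured 12.8 and 12 in WT, 15.7 and 15 in T-bet-/-, 15.6 and 14.9 in STAT6-/-, and 15.9 and 16.6 in the double mutant. It rose by 0.28, 0.28 and 0.36 (SE 0.061). Srebf1, whose SREBP products favour fatty acid genes, measured 19.7 and 17.8 in WT, 22.0 and 20.4 in T-bet-/-, 26.0 and 24.8 in STAT6-/-, and 22.4 and 24.8 in the double mutant. It rose in STAT6-/- (0.42, SE 0.073, adjusted p = 0.000742) and in the double mutant (0.32, adjusted p = 0.00369) and was not called in T-bet-/- (0.17, adjusted p = 0.0641). All 6 mutant libraries of Srebf1 were above WT. Between the double mutant and T-bet-/- it was not called (0.15, adjusted p = 0.156).

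The retention proteins differed from each other. Insig1, itself a sterol-responsive target, measured 30.3 and 26.8 FPKM in WT, 24.3 and 26.2 in T-bet-/-, 34.0 and 33.1 in STAT6-/-, and 35.0 and 32.4 in the double mutant. The libraries that lack STAT6 were all above the rest. Its rise over WT was called in STAT6-/- (0.23, adjusted p = 0.0205) and the double mutant (0.23, adjusted p = 0.0173), but in neither without WT replicate 2 (0.138 and 0.12), and the STAT6-/- call was absent without STAT6-/- replicate 1 (0.0936) or 2 (0.0549) and the double-mutant call without its replicate 1 (0.0945). Quantile normalization also ended both calls (0.0878 and 0.175), and over the alternatives the adjusted p ran from 0.00817 to 0.138 in STAT6-/- and from 0.00694 to 0.175 in the double mutant. Insig2 measured 10.4 and 10.6 in WT, 11.2 and 10.9 in T-bet-/-, 8.72 and 9.81 in STAT6-/-, and 8.14 and 8.45 in the double mutant. It fell in the double mutant (-0.31, SE 0.068, adjusted p = 0.00301) and was not called in either single mutant.

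Both sterol exporters fell. Abca1 (chromosome 4, 53030789 to 53159988), which loads cholesterol onto lipid-poor apolipoprotein, measured 4.70 and 4.68 FPKM in WT, 2.05 and 2.03 in T-bet-/-, 2.12 and 1.89 in STAT6-/-, and 1.11 and 1.27 in the double mutant. The single mutants overlapped, and the double mutant lay below both. The differences from WT were -0.90, -0.92 and -1.38 (SE 0.077), with adjusted p = 6.4e-07 in the double mutant. Abcg1 (chromosome 17, 31057694 to 31117984), which passes cholesterol to mature lipoprotein particles, measured 11.6 and 10.5 in WT, 4.69 and 4.60 in T-bet-/-, 9.62 and 9.10 in STAT6-/-, and 4.99 and 4.98 in the double mutant. Libraries that lack T-bet stood well below the others, with differences of -1.09 (adjusted p = 2.18e-06) in T-bet-/- and -1.01 in the double mutant. The smaller fall in STAT6-/- (-0.21, adjusted p = 0.0199) was not called without WT replicate 1 (0.126) or STAT6-/- replicate 2 (0.114), with a range of 0.00696 to 0.126. Nr1h2, which encodes the LXR beta receptor, ran from 48.7 to 65.5 FPKM and fell in T-bet-/- (-0.29, SE 0.067, adjusted p = 0.00395). Its fall in the double mutant (-0.23, adjusted p = 0.0123) was not called without WT replicate 1 (0.0844) or double-mutant replicate 1 (0.0607), with a range of 0.000634 to 0.0844. Stard4, a sterol carrier of the cytosol, stayed between 6.71 and 7.88. The summed myeloid markers were also lower in the mutants (103 to 146 FPKM, against 188 to 193 in WT). Of 7 tested myeloid markers, 5, 4 and 4 were called lower in T-bet-/-, STAT6-/- and the double mutant, and 0, 1 and 1 higher. Among all tested genes 36.1% to 36.8% were called lower and 34.2% to 36.3% higher. The part of the myeloid markers in the falls of Abca1 and Abcg1 was not tested.

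All 7 tested fatty acid members differed from WT, in the same direction in each mutant: 3 rose and 4 fell in each. The share of all genes called in either direction was 70.6% in T-bet-/-, 71.1% in STAT6-/- and 73.1% in the double mutant. Acly, Fasn and the elongase Elovl1 were the members that rose. Acaca, the elongase Elovl5 and the desaturases Scd2 and Fads1 were those that fell.

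Acly (chromosome 11, 100476352 to 100528000), ATP citrate lyase, measured 44.9 and 48.5 FPKM in WT, 74.5 and 76.3 in T-bet-/-, 73.9 and 76.2 in STAT6-/-, and 98.2 and 98.4 in the double mutant. The single mutants overlapped and the double mutant was above both. Differences from WT were 0.68, 0.67 and 1.06 (SE 0.054), with adjusted p = 3.99e-07 in the double mutant. Fasn, fatty acid synthase, measured 14.4 and 13.4 in WT, 25.4 and 24.6 in T-bet-/-, 19.6 and 19.0 in STAT6-/-, and 21.9 and 20.6 in the double mutant. It was highest in T-bet-/- (0.80, SE 0.060, adjusted p = 4.95e-06), and no genotypes overlapped. Acaca, the acetyl-CoA carboxylase that stands between them, measured 2.1 and 1.96 in WT and 1.09 to 1.41 in the mutants, and fell by 0.36, 0.49 and 0.52 on the log2 scale (SE 0.076).

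The elongases went in opposite directions. Elovl1, which extends saturated and monounsaturated very-long-chain fatty acids, measured 18.3 and 18.6 FPKM in WT, 32.1 and 30.2 in T-bet-/-, 36.4 and 37.7 in STAT6-/-, and 38.4 and 44.0 in the double mutant. It rose by 0.72, 0.96 and 1.11 (SE 0.070), in the order of the genotypes given and with no overlap. Elovl5 (chromosome 9, 77917365 to 77984519), which extends polyunsaturated fatty acids, measured 154 and 156 in WT, 65.9 and 67.7 in T-bet-/-, 48.3 and 48.4 in STAT6-/-, and 47.5 and 45.1 in the double mutant. It had the highest WT level of the 36 members, and it fell by 1.21, 1.66 and 1.72 (SE 0.050, adjusted p = 4.15e-08 in the double mutant).

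Scd2 (chromosome 19, 44293676 to 44306864), which places the first double bond in saturated chains, measured 9.28 and 9.08 FPKM in WT, 3.15 and 2.57 in T-bet-/-, 2.28 and 2.23 in STAT6-/-, and 2.02 and 2.13 in the double mutant. Its differences of -1.40, -1.64 and -1.73 (SE 0.084, adjusted p = 3.15e-07 in the double mutant) were among the largest of the list. Fads1, the front-end desaturase of polyunsaturated chains, measured 3.77 and 3.03 in WT, 2.43 and 2.30 in T-bet-/-, 1.61 and 2.18 in STAT6-/-, and 2.44 and 2.50 in the double mutant. Its fall in STAT6-/- was -0.61 (SE 0.113, adjusted p = 0.00111). The calls in T-bet-/- (-0.38, adjusted p = 0.0137) and the double mutant (-0.34, adjusted p = 0.0227) were absent without WT replicate 1 (0.106 and 0.162), the first also without T-bet-/- replicate 2 (0.0654) and the second also without double-mutant replicate 1 (0.0768) or 2 (0.0597) and under quantile normalization (0.0914). Over the alternatives they ran from 0.00816 to 0.106 and from 0.0132 to 0.162.

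**Figure D2:**
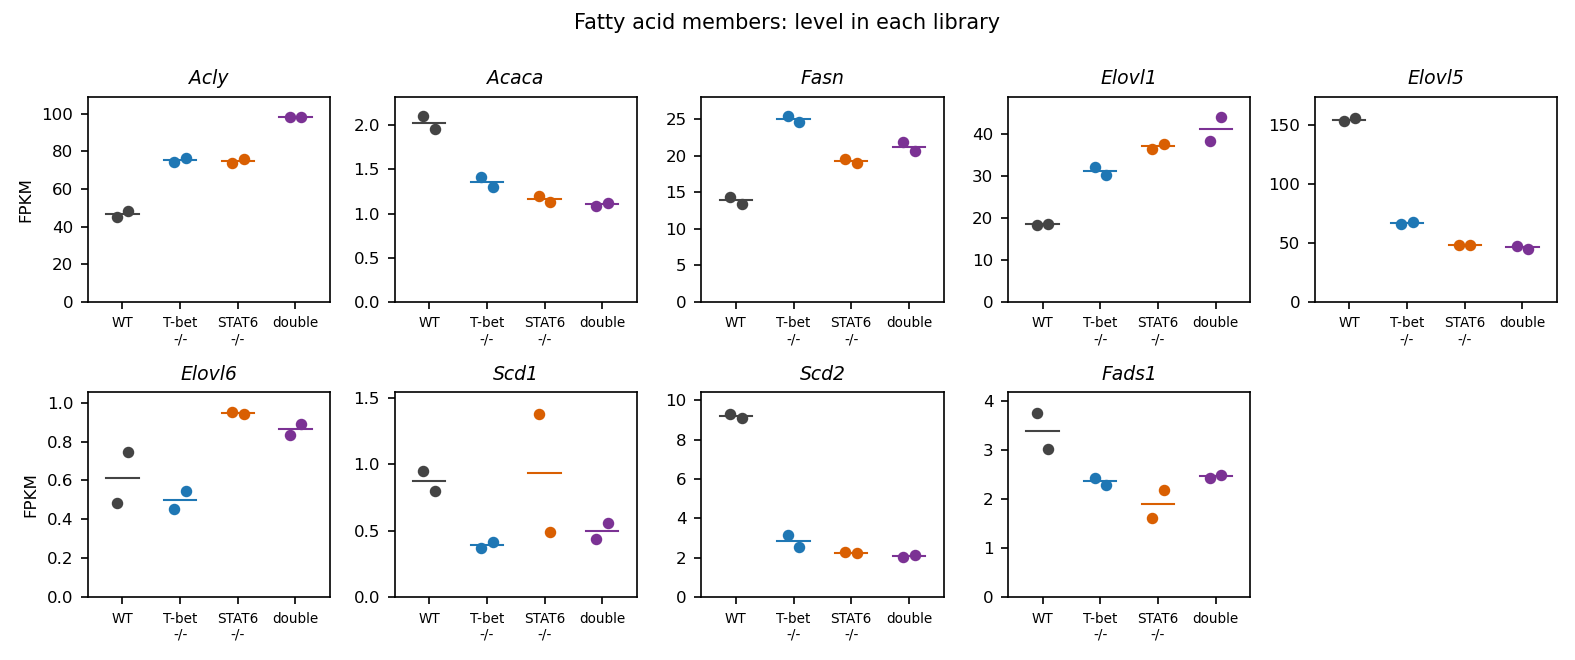
FPKM of 9 fatty acid genes in each of the 8 libraries, 1 panel a gene with its own vertical axis; points are libraries, bars are genotype means, and "double" is T-bet-/- STAT6-/-. Acly runs from 44.9 in WT to 98.4 in the double mutant, and Elovl5 from 156 in WT to 45.1 in the double mutant.

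**Figure D3:**
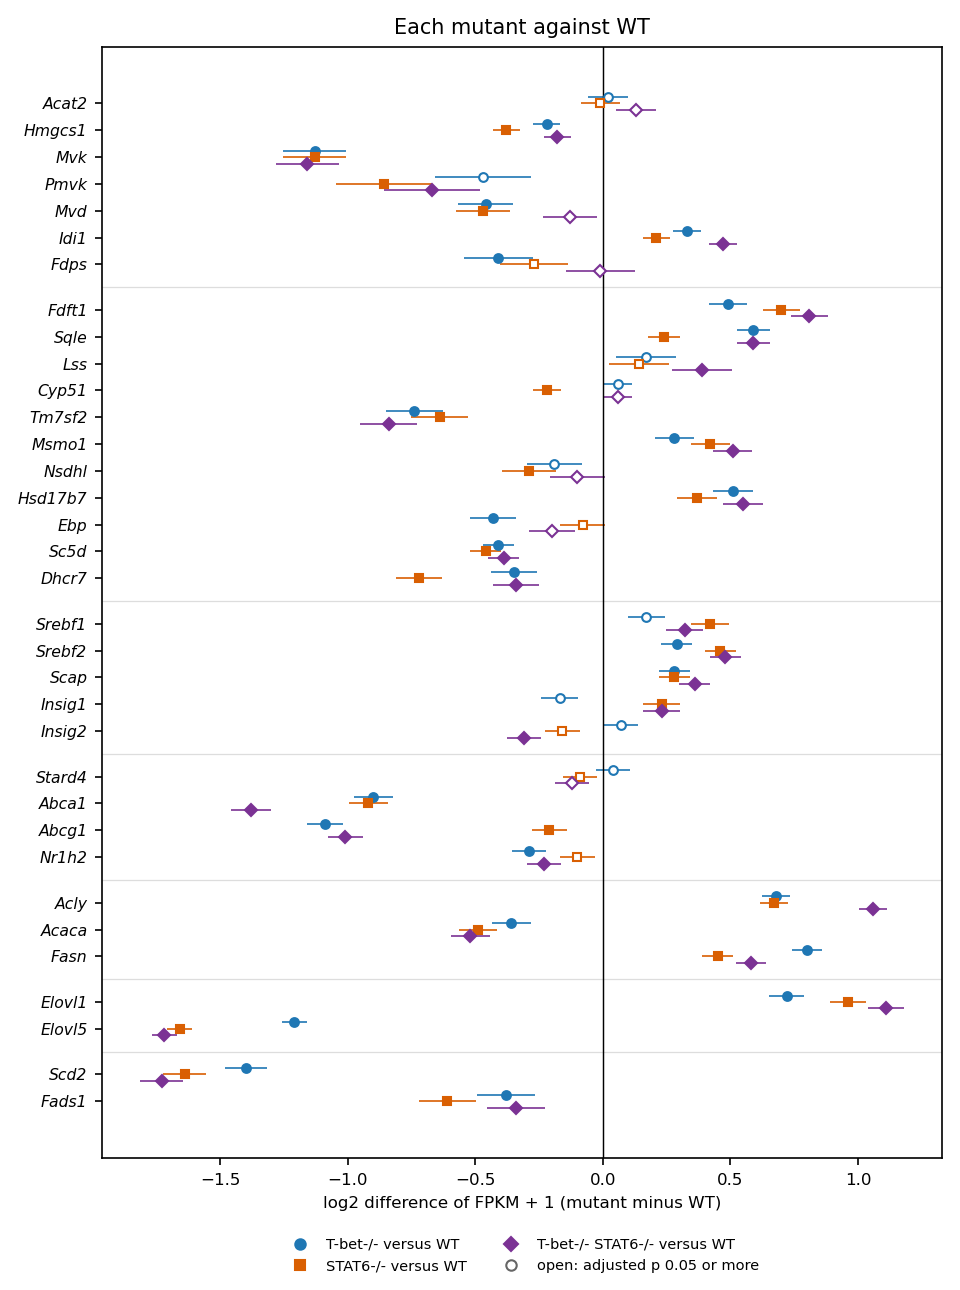
Difference from WT of each of the 34 tested members in the 3 mutants, on the log2(FPKM + 1) scale (horizontal axis) with bars of 1 SE, grouped by role; filled points have an adjusted p under 0.05 and open points do not. The 3 comparisons share the 2 WT libraries. Both directions appear within the enzyme groups and within the fatty acid group.

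Across libraries, 9 sterol and 3 fatty acid members had all 6 mutant libraries above both WT libraries, and 9 sterol and 4 fatty acid members had all 6 below. The shares of all tested genes with such separation were 33.2% above and 33.7% below. The remaining 9 tested members overlapped with WT.

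Differences among the mutants do not use the WT values. The WT libraries still enter their SE and adjusted p, because all 8 libraries shared 1 estimate of the spread. Between the double mutant and T-bet-/-, which differ in STAT6, 6 sterol members rose and 2 fell, against 16.4% and 16.2% of all tested genes (32.6% in either direction). Of the fatty acid members 2 rose and 3 fell. The exporter Abca1 was lower in the double mutant (-0.48, SE 0.077, adjusted p = 0.00245), and the retention proteins split, Insig1 being higher (0.40, SE 0.074, adjusted p = 0.00416) and Insig2 lower (-0.37, adjusted p = 0.00415). Acly (0.38, adjusted p = 0.00128) and Elovl1 (0.39, adjusted p = 0.00384) were higher and Elovl5 lower (-0.52, SE 0.050, adjusted p = 0.000185). The other sterol rises were Mvd, Fdps, Fdft1, Msmo1 and Srebf2. Of 17 alternatives, their calls were lost in 9, 8, 2, 10 and 7, in that order. For Fdft1 these were left-out libraries only, and the others were also lost in at least 1 alternative that kept every library. The count of sterol rises was 1 without T-bet-/- replicate 2 and 1 without double-mutant replicate 2, and 3 without T-bet-/- replicate 1, STAT6-/- replicate 1 or STAT6-/- replicate 2. The falls of Fasn (-0.22, adjusted p = 0.0219) and Scd2 (-0.32, adjusted p = 0.0197) were also not called without T-bet-/- replicate 1 (0.124 and 0.137) or double-mutant replicate 2 (0.107 and 0.0561), and for Fasn without T-bet-/- replicate 2 (0.0793) and for Scd2 without double-mutant replicate 1 (0.0669). The Scd2 call was also lost when only the genotypes compared were fitted. Over the alternatives the log2 difference ran from -0.26 to -0.18 for Fasn and from -0.44 to -0.21 for Scd2.

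Between the double mutant and STAT6-/-, which differ in T-bet, 5 sterol members rose and 2 fell, against 11.2% and 8.64% of all tested genes (19.9% in either direction). Both falls were exporters, Abca1 (-0.46, SE 0.077, adjusted p = 0.00469) and Abcg1 (-0.79, SE 0.069, adjusted p = 0.000143). Sqle rose (0.35, SE 0.064, adjusted p = 0.00651), as did Acly (0.38, adjusted p = 0.00191), the only fatty acid member called. The other rises were the enzymes Hmgcs1, Idi1, Cyp51 and Dhcr7. Of 17 alternatives, their calls were lost in 7, 3, 1 and 4, in that order. For Hmgcs1 these included the fit of only the genotypes compared, and for the others they were left-out libraries only. The count of sterol rises was 1 without STAT6-/- replicate 2, and 2 without STAT6-/- replicate 1 or double-mutant replicate 2. Elovl5 (-0.06, SE 0.050, adjusted p = 0.44) and Scd2 (-0.08, SE 0.084, adjusted p = 0.538) were not called between these genotypes.

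**Figure D4:**
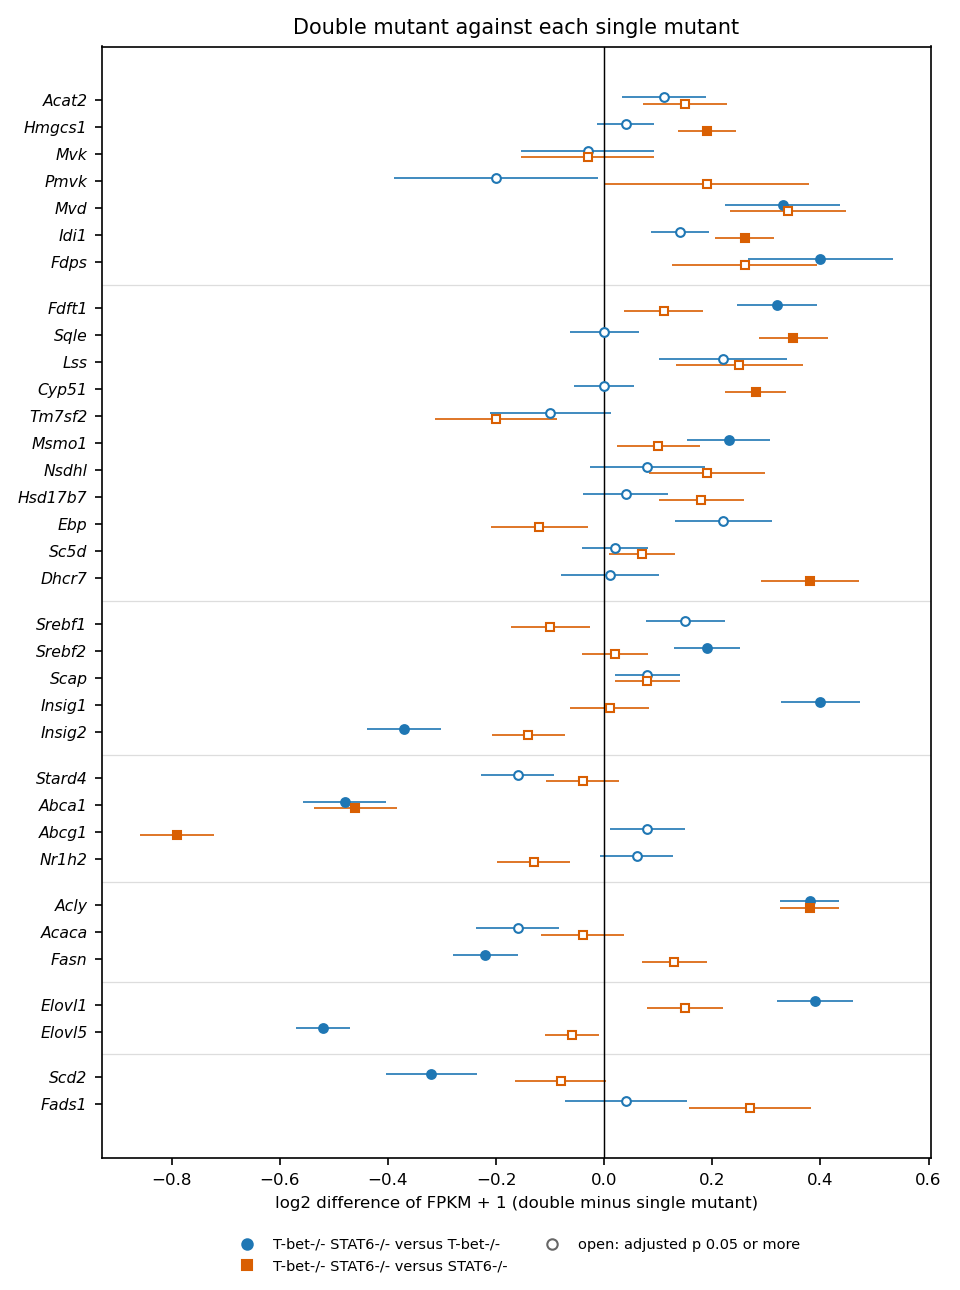
Difference of the double mutant from each single mutant for the 34 tested members, on the log2(FPKM + 1) scale (horizontal axis) with bars of 1 SE, grouped by role; filled points have an adjusted p under 0.05 and open points do not. Abca1 is lower in the double mutant in both comparisons, and Acly is higher in both, by 0.38.

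Whether the effect of losing one factor depended on the other was tested as an interaction, the difference between double mutant and single mutant minus the difference between the other single mutant and WT. It was called for 10 sterol members above 0 and 5 below, where 29.6% of all genes were above and 27.7% below (57.3% in either direction), and for 4 fatty acid members above and 3 below. WT enters this difference, so the WT libraries that stood apart enter it too. A shift shared by the WT libraries cannot be told apart from dependence of one factor on the other. Above 0 with every alternative tried were Hmgcs1, Mvk, Mvd, Sc5d, Dhcr7 and Abca1 in the sterol arm and Elovl5, Scd2 and Fads1 in the fatty acid arm. Elovl5, for example, fell by 1.21 in T-bet-/- and 1.66 in STAT6-/-, and by 1.72 in the double mutant, an interaction of 1.15 (SE 0.071, adjusted p = 1e-05). Below 0 with every alternative were Fdft1, Acly, Fasn and Elovl1. Fasn rose by 0.80 and 0.45 in the single mutants and by 0.58 in the double mutant, an interaction of -0.67 (SE 0.085, adjusted p = 0.000248). The count of sterol members below 0 was 1 without WT replicate 2 or T-bet-/- replicate 1, 2 without T-bet-/- replicate 2 or STAT6-/- replicate 2, and 3 without any 1 of the other 4 libraries, and the count above 0 ran from 7 to 12.

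The neighbouring pathways were described with lists that hold none of the 37 genes. Their counts stand against the shares of all tested genes called higher, 34.2%, 35% and 36.3% in T-bet-/-, STAT6-/- and the double mutant, and called lower, 36.3%, 36.1% and 36.8%. In the control list, 6 of 12 tested genes rose in T-bet-/-, 7 in STAT6-/- and 7 in the double mutant, and 2, 1 and 1 fell. Tmem97, a sterol-responsive membrane protein, measured 5.13 and 3.91 FPKM in WT, 12 and 9.77 in T-bet-/-, 10.1 and 9.98 in STAT6-/-, and 13.0 and 15.6 in the double mutant, with a difference of 1.48 in the double mutant (SE 0.129). Fbxw7, which marks nuclear SREBP for destruction, was also higher in all 3 mutants (0.68 to 0.96). Among 17 other sterol and isoprenoid enzymes, 8 rose in each mutant and 4, 6 and 3 fell, beside 34.2% to 36.3% of all genes higher and 36.1% to 36.8% lower. Nus1, of dolichol synthesis, rose by 0.86, 0.89 and 0.96, Zmpste24, which trims prenylated proteins, rose by 0.44, 0.56 and 0.75, and Acat1, the mitochondrial thiolase, fell by 0.70, 0.93 and 0.76.

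In sterol trafficking and storage, 14 of 20 genes were tested, of which 5, 3 and 4 rose and 7, 3 and 4 fell in T-bet-/-, STAT6-/- and the double mutant, where 34.2% to 36.3% of all tested genes rose and 36.1% to 36.8% fell. Gramd1b, which moves cholesterol from the plasma membrane to the endoplasmic reticulum, measured 29.7 and 31.3 FPKM in WT and 69.9 to 81.0 in the mutants. Stard3, a late endosomal cholesterol carrier, measured 15.8 and 15.6 in WT and 30.4 to 42.2 in the mutants, and Soat1, which esterifies cholesterol, measured 17.3 and 18.3 in WT and 25.6 to 35.5 in the mutants. All were called higher in each mutant.

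Of 19 tested fatty acid oxidation genes, 15 fell in each mutant and 1, 2 and 3 rose, where 36.1% to 36.8% of all tested genes fell and 34.2% to 36.3% rose. The median difference was -0.48, -0.51 and -0.69, beside -0.02, -0.01 and -0.01 over all tested genes. Hadh, a mitochondrial dehydrogenase of the beta-oxidation spiral, measured 14.7 and 13.9 FPKM in WT, 6.17 and 6.0 in T-bet-/-, 3.56 and 3.85 in STAT6-/-, and 5.10 and 5.44 in the double mutant. Acaa2, the thiolase of the same spiral, measured 23.0 and 18.3 in WT and 4.43 to 9.73 in the mutants, and Etfb, which passes its electrons on, measured 34.3 and 26.8 in WT and 11.1 to 17.8 in the mutants. Of 18 tested genes of fatty acid activation and other synthesis, 7, 6 and 6 rose and 7, 7 and 6 fell, near those shares. Fabp5, a fatty acid carrier, rose by 0.65, 1.10 and 1.22, Hsd17b12, the reductase of the elongation cycle, by 0.77, 1.09 and 1.02, and Degs1, a ceramide desaturase, by 0.80, 0.76 and 1.06. Of 21 tested glycerolipid genes, 5, 6 and 6 rose and 11, 9 and 10 fell, against the same shares. Agpat5, an acyltransferase, rose by 1.11, 0.88 and 1.20, Pisd, which makes phosphatidylethanolamine, rose by 1.01, 0.81 and 1.02, and Lpin1, a phosphatidate phosphatase, fell by 1.22, 1.15 and 1.31. All of these values use the same 2 WT libraries.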

How the data were processed

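RNA was measured in 8 libraries, 2 from each of 4 genotypes. The deposited table gives FPKM per gene, made by the authors with Cufflinks on mm10, per the submitters' processing notes; for the aligner, the Cufflinks version and strandedness the sources used here give nothing. The lowest deposited value is 0.1 FPKM. Whole steps in low values put the relative depth of the libraries between 0.856 and 1.04 (from 507 genes under 0.5 FPKM, tolerance 0.0005 on the log2 scale); absolute depth is unknown, so no count test was used. Without known strandedness, reads of overlapping genes cannot be told apart.

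Of 11906 lines, 17 date-like ones were left out, and 43 symbols stood on several lines. Genes reaching 1 FPKM in at least 2 libraries (10266) were tested on log2(FPKM + 1) with limma 3.58.1 (R 4.3.3; trend, all 4 genotypes in 1 model, Benjamini-Hochberg adjustment over all tested genes); tables used Python 3.11.15 with pandas 2.3.3 and figures matplotlib 3.10.9. The procedure was tested on simulated data. Members are described in all 8 columns; values per library were given for the 12 sterol and 6 fatty acid members with the largest range of genotype means and for the 5 control genes, and up to 3 genes of each neighbouring list were named by the largest difference from WT among those called; Hmgcs1 and Idi1 were added after their values were seen, and a gene that the rule names is not reported here. The members and lists were chosen with earlier results of these data known. Deviations of libraries with the same number correlated little between genotypes (-0.09 to 0.091), which cannot show that samples were unpaired. Alternatives were another pseudocount, filter, scaling, trend, model and left-out libraries. Sequences and motif searches used RefSeq windows; gene positions are from the mm10 annotation.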

Additional observations from a re-analysis of the deposited data

Results flagged for a closer look

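The interaction of the genotypes was called for 22 of the 34 tested members. By limma's test, the difference between libraries with and without one factor was not the same in the presence and absence of the other. Dependence of one factor on the other cannot be told apart here from a shift shared by the WT libraries. The background share of called genes was 57.3%. Values are on the log2(FPKM + 1) scale. Among the early sterol enzymes the interaction was 0.42 for Hmgcs1, 1.10 for Mvk, 0.80 for Mvd and 0.68 for Fdps. From squalene onward it was -0.39 for Fdft1, -0.24 for Sqle, 0.22 for Cyp51, 0.54 for Tm7sf2, -0.33 for Hsd17b7, 0.48 for Sc5d and 0.73 for Dhcr7. The control genes gave -0.27 for Srebf1 and -0.26 for Srebf2, and the exporters gave 0.45 for Abca1 and 0.30 for Abcg1. In the fatty acid arm it was -0.30 for Acly, 0.32 for Acaca, -0.67 for Fasn, -0.57 for Elovl1, 1.15 for Elovl5, 1.32 for Scd2 and 0.65 for Fads1. The call was lost in 10 of 16 alternatives for Sqle and for Srebf1, in 8 for Cyp51, 7 for Acaca, 6 for Abcg1, 5 each for Hsd17b7 and Srebf2, 3 of 15 for Tm7sf2 and 1 of 16 for Fdps. The other members named held theirs in every alternative. The WT libraries, which stood apart from the mutants and carried the erythroid transcripts, enter every one of these values, and the part of those transcripts was not tested.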

How the results depend on the processing

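Of the 122 calls made for members over the 6 comparisons, 89 held in every alternative tried. In the comparisons with WT, the counts of called members stayed within 1.5 times the reported ones in every alternative. Between the double mutant and T-bet-/-, the 6 sterol rises became 3 with no intensity trend in the model and 2 when only the genotypes compared were fitted; leaving out 1 library at a time gave 1 to 5, and 1 to 3 for the 3 fatty acid falls. Between the double mutant and STAT6-/-, leaving out 1 library gave 1 to 5 sterol rises and 1 to 2 fatty acid rises. The 5 sterol interactions below 0 became 3 without a filter on low values and 3 under quantile normalization, and 1 to 3 with 1 library left out. Where a genotype kept 1 library, that library was assumed to vary like the others. The causes of these changes were not tested.

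Library numbers are shared across genotypes, and whether they pair the samples is not known. The replicate 1 minus replicate 2 differences over genes correlated by -0.09 to 0.091 between genotypes. Such low values cannot show that the samples were unpaired. With the replicate block the sterol interactions below 0 numbered 3, and no other count moved by more than 1.5 times. Of the 204 gene results, 21 changed sign under at least 1 alternative; all were uncalled before and after, none was above 0.20 in size as reported, and none above 0.12 after. Scaling moved the median over all genes by under 0.1. The number of libraries, 2 per genotype, and the unknown depth limit low members such as Lss and Tm7sf2.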
